A study of Mus musculus with 20 samples.

Results

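Oxidative phosphorylation is carried out by 5 protein complexes of the inner mitochondrial membrane, and most of their subunits are encoded in the nucleus. The genes described here are those whose symbols match Nduf followed by a, b, c, s or v and a digit, Sdha to Sdhd, Uqcr, Cox4 to Cox8, or Atp5, without symbols that hold "-ps". The rule found 88 genes of the 53722 in the oocyte table and the same 88 of the 55291 in the spermatogonia table. They comprise 40 genes of complex I (NADH dehydrogenase), 4 of complex II (succinate dehydrogenase), 8 of complex III (cytochrome bc1), 19 of complex IV (cytochrome c oxidase) and 17 of complex V (ATP synthase). Complexes were assigned by symbol alone, so Ndufa4, whose protein is known as a subunit of cytochrome c oxidase, and its relative Ndufa4l2 are counted in complex I. A further 13 symbols with "-ps" were left out by the rule. GENCODE M21 annotates 84 of the 88 as protein coding and 4 (Cox6c2, Ndufa11b, Ndufb4c and Ndufs6b) as processed pseudogenes, whose reads cannot be told apart with certainty from those of their parent genes.

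Complexes I, III and IV pass electrons from NADH to oxygen and pump protons, complex II feeds in electrons from succinate without pumping, and complex V uses the proton gradient to make ATP. Complex I and the other proton-moving complexes are built from both nuclear and mitochondrially encoded subunits, whereas complex II is wholly nuclear. Several cytochrome c oxidase subunits exist as alternative isoforms that differ between tissues. Mouse oocytes rely largely on mitochondrial ATP, and carry a very large number of mitochondria once fully grown, a stage not sampled here.

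RNA was sequenced from mouse germ cells in which Cre recombinase targeted Chd4, whose product is the remodelling ATPase of the NuRD complex. The 20 libraries form 10 groups of 2. DcKO animals were Chd4 f/-; Ddx4-Cre Tg/+ and their Dctrl controls were Chd4 f/+; Ddx4-Cre Tg/+, so that these controls were heterozygous and carried Cre. Both were sampled as non-growing oocytes (NGO) at postnatal day 1 (P1) and day 5 (P5) and as undifferentiated spermatogonia at day 3 (P3). GcKO animals were Chd4 f/f; Gdf9-iCre Tg/+ and their Gctrl controls were Chd4 f/f with no Cre named. Both were sampled at day 10 (P10) as NGO and as growing oocytes (GO). Ddx4-Cre acts in germ cells of both sexes and Gdf9-iCre in oocytes, and all animals had a mixed background of the strains C57BL/6, 129S1/Sv and FVB/NJ. The labels do not say that replicates were separate animals, so the spread behind the p-values may be technical. That spread is how far the 2 libraries of a group lie apart, pooled over all groups of a fit.

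Depth recovered from the values ran from 15.33 to 30.07 M reads per library, and between 10003 and 18657 genes reached 1 TPM. Chd4 itself was at 4.32 and 1.9 TPM in P1 DcKO against 24.7 and 31.2 TPM in P1 Dctrl, at 8.28 and 4.94 TPM against 14.5 and 17.9 TPM at P5, and at 40.2 and 51.7 TPM against 249 and 286 TPM in P3 spermatogonia. At P10 it was low in all libraries, with 1.34 and 0.247 TPM in NGO of GcKO against 1.63 and 1.85 TPM in Gctrl, and 0.631 and 1.54 TPM in GO of GcKO against 1.56 and 2.96 TPM in Gctrl, so that GcKO lay below Gctrl in both but all values were near or under 3 TPM. The 8 oocyte markers summed to between 2108 and 8518 TPM in oocyte libraries and between 2620.2 and 2768 TPM in spermatogonia libraries, so that this sum did not separate the cell types. The lists share Ddx4 and Dazl, and Sohlh1 was high in spermatogonia too. The 8 spermatogonia markers summed to between 4342 and 5669 TPM in spermatogonia and between 1163 and 3392 TPM in oocytes. Of single markers, Figla was at 316 TPM or more in every oocyte library and at 31.5 TPM or less in spermatogonia, and Zbtb16 at 4.31 TPM or less in oocytes and 44.2 TPM or more in spermatogonia. Summed markers of stroma ran from 0 to 5.48 TPM, of blood from 0 to 18.5 TPM and of granulosa or Sertoli cells from 0.537 to 54.8 TPM in oocyte libraries. In spermatogonia libraries granulosa or Sertoli markers summed to between 58.1 and 120.2 TPM.

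Transcripts of the 88 genes made up a large part of the oocyte transcriptome, and that part was smaller at later stages. Between P5 and P10, genotype and Cre differ as well, so stage cannot be told apart from them. As a share of all TPM in a library the 88 genes held 9.08% and 8.79% in P1 DcKO against 9.37% and 8.35% in P1 Dctrl. The shares below are also those of the 88 genes. At P5 they held 8.47% and 7.92% in DcKO against 6.92% and 6.98% in Dctrl, and both DcKO libraries lay above both controls. In P10 NGO they held 5.32% and 5.65% in GcKO against 4.98% and 5.39% in Gctrl, with the groups overlapping. In P10 GO the share was 4.01% and 3.93% in GcKO against 2.42% and 2.82% in Gctrl, the lowest pair of oocyte libraries. P3 spermatogonia, whose table was normalised separately, held 2.26% and 2.20% in DcKO against 2.58% and 2.63% in Dctrl. TPM are shares of a total, so a fall in share can come from a rise of other transcripts, and in bulk samples fewer cells of a type and less RNA per cell cannot be told apart.

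**Figure D1:**
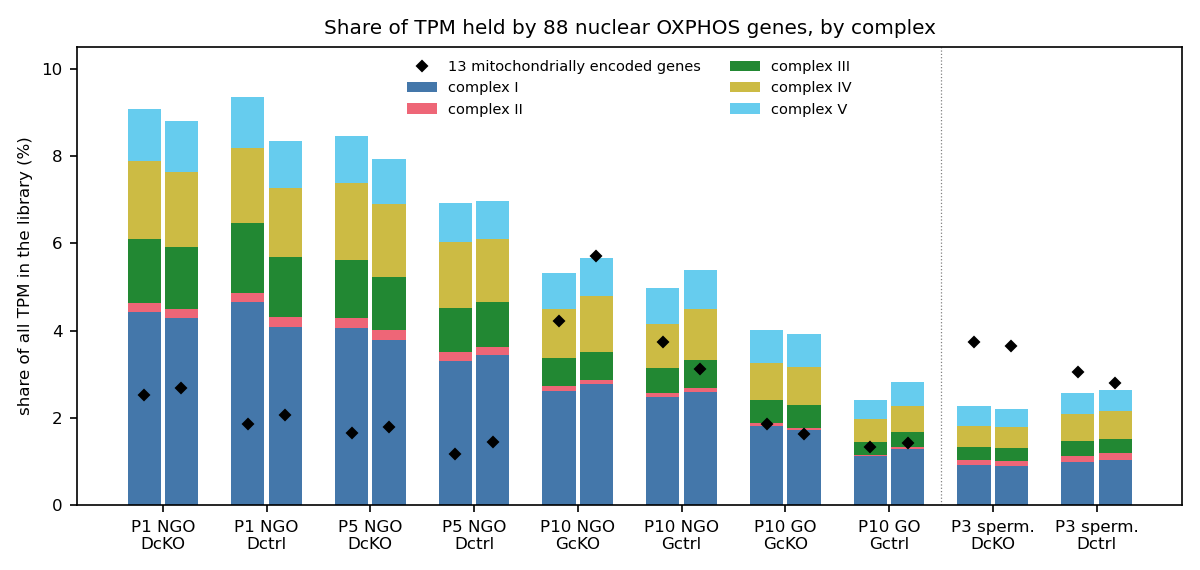
Share of all TPM held by the 88 genes in each of the 20 libraries, stacked by complex (bars, percent; the libraries of a group stand side by side), with the share of the 13 mitochondrially encoded genes as diamonds. Bars are lower at later oocyte stages, where P10 also differs from P1 and P5 in genotype and Cre. The P5 DcKO bars (8.47% and 7.92%) stand above their controls (6.92% and 6.98%). The P10 GO GcKO bars (4.01% and 3.93%) also stand above theirs (2.42% and 2.82%). The dotted line separates the spermatogonia table.

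The 13 mitochondrially encoded subunit genes did not follow the same course. They held 2.52% and 2.69% of TPM in P1 DcKO against 1.85% and 2.06% in P1 Dctrl, and 1.66% and 1.79% in P5 DcKO against 1.16% and 1.45% in P5 Dctrl. In P10 NGO they held 4.22% and 5.70% in GcKO against 3.73% and 3.11% in Gctrl, the highest values in oocytes, and in P10 GO 1.87% and 1.62% against 1.33% and 1.42%. Spermatogonia had 3.75% and 3.65% in DcKO against 3.05% and 2.79% in Dctrl, more than the nuclear genes held there. In each of the 5 settings both knockout libraries lay above both controls. Of the 13, mt-Nd1 passed the test in P5 NGO (log2 fold change 0.72 ± 0.14 SE, limma adjusted p = 0.0309) and in P10 NGO (0.72 ± 0.14, adjusted p = 0.0261), and mt-Atp6 in P10 GO (0.62 ± 0.19, adjusted p = 0.0486). The call at P5 ended whichever of the 4 P5 libraries was left out, that in P10 NGO ended without replicate 2 of either group, and that in GO ended without Gctrl replicate 1 or either GcKO replicate.

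Levels differed widely among subunits. On the per-length TPM scale the highest members over the 16 oocyte libraries were small subunits. Ndufa1, an accessory subunit of the membrane arm of complex I, had the highest mean (lowest 1419, median 3775 and highest 6299.8 TPM), and Ndufa2, another accessory subunit, ran from 1385 to 2980.4 TPM. In complex III the highest were Uqcr10 (806 to 3988 TPM) and Uqcr11 (743 to 5114 TPM), both small subunits without a redox centre. In complex IV they were Cox7c (1073 to 3909 TPM) and Cox4i1 (325 to 2833 TPM), the broadly expressed form of subunit IV, and in complex V Atp5o (672 to 2197 TPM), the stalk protein that confers oligomycin sensitivity, and Atp5h (819.8 to 1388 TPM), a subunit of the peripheral stalk. The catalytic subunits of ATP synthase were lower, with Atp5a1 between 62.9 and 266 TPM and Atp5b between 30.8 and 191 TPM in oocytes; these were named after their values were seen. The symbol Atp5o stands for 2 overlapping gene entries in GENCODE M21, and which of them the deposited row holds is not known, so all values of Atp5o are uncertain in that respect.

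Complex II was uneven. Sdhb, its iron-sulfur subunit, ran from 172 to 1280 TPM in oocytes, Sdhd and Sdhc, which anchor it in the membrane, from 42.4 to 835 TPM and from 2.84 to 230.2 TPM, and Sdha, the flavoprotein that oxidises succinate, from 30.7 to 91.8 TPM. In spermatogonia Sdha was at 422 and 366 TPM in DcKO against 453 and 473 TPM in Dctrl, where Sdhb was at 533 and 563 TPM against 632 and 641 TPM. Sdha and Sdhb thus lay closer together in spermatogonia than in oocytes, a description of levels from tables that were normalised separately.

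**Figure D2:**
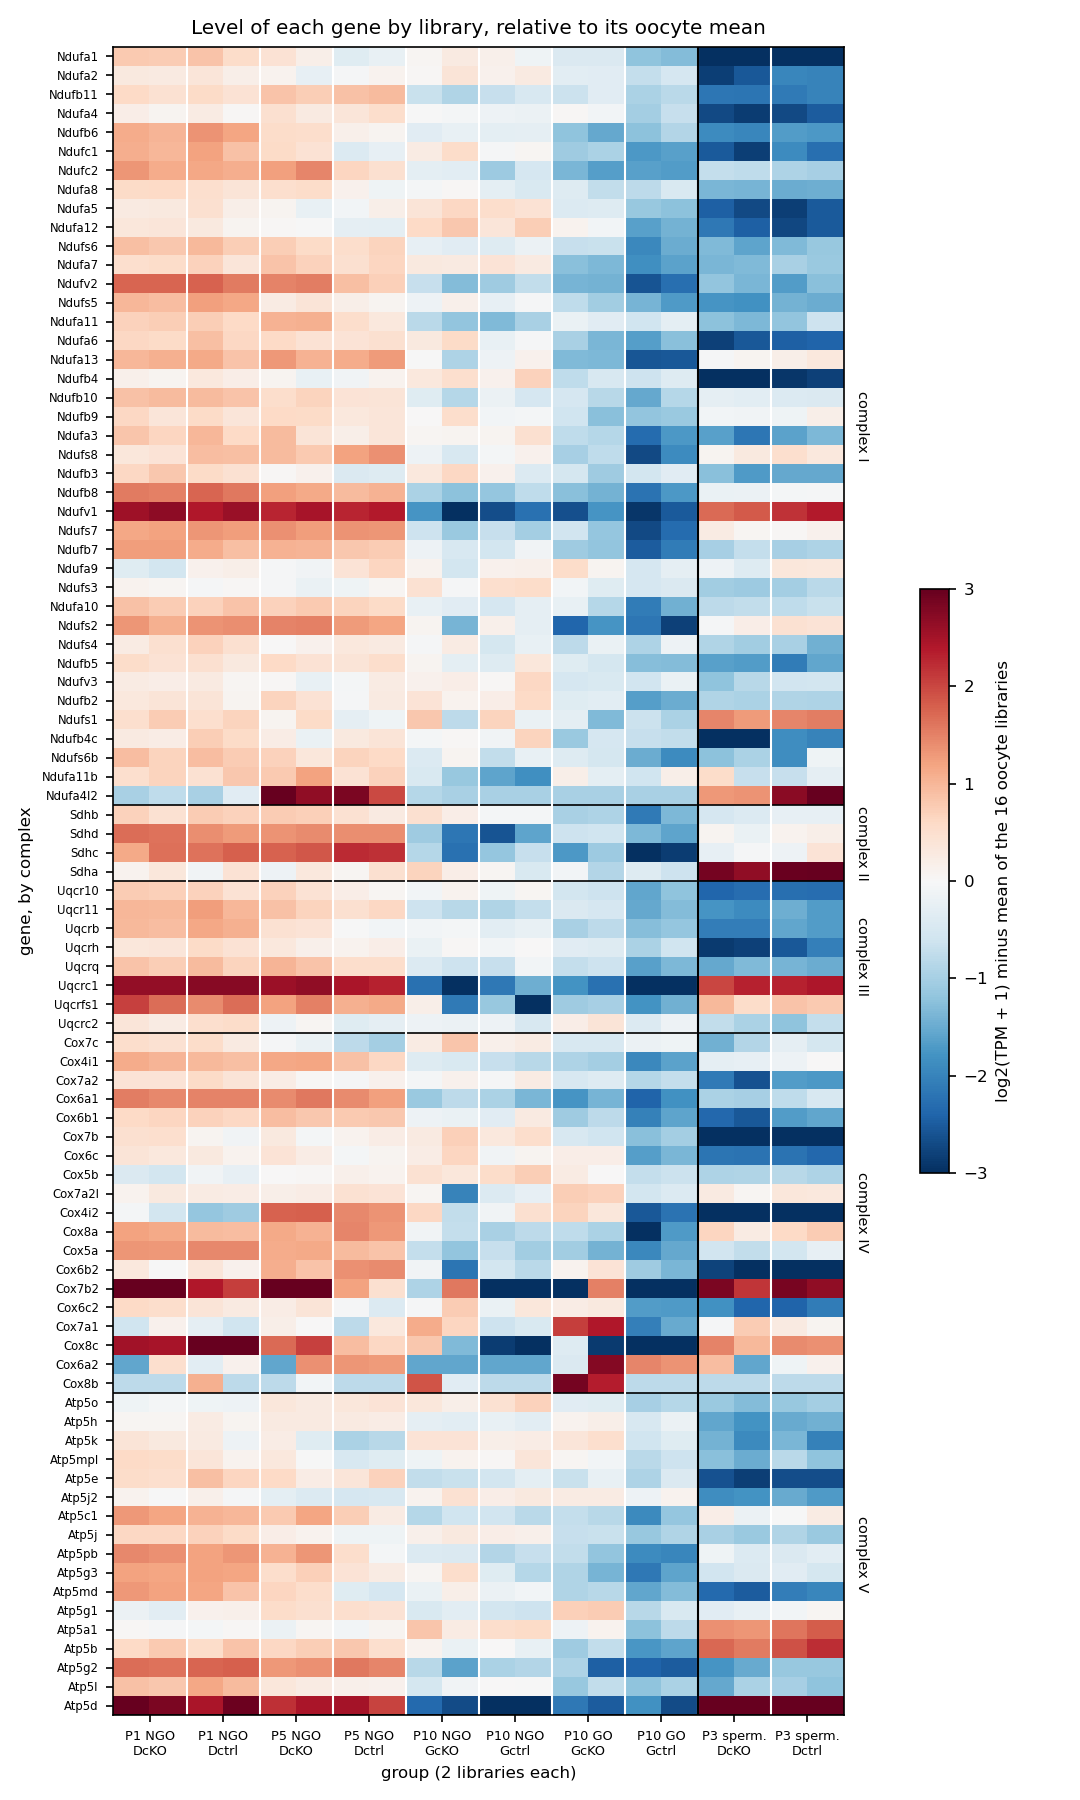
log2(TPM + 1) of each of the 88 genes in each library minus the gene's mean over the 16 oocyte libraries (colour, limited at -3 and 3; rows are genes by complex, ordered by mean oocyte TPM, columns are libraries in pairs). P1 and P5 columns are mostly above the mean and P10 GO Gctrl columns mostly below it, and Uqcrc1, Ndufv1 and Atp5d are dark red at P1 and P5 and blue at P10; the 4 columns at the right are the separately normalised spermatogonia.

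Over the 8 oocyte groups, 66 of the 88 genes had their lowest mean TPM in P10 GO Gctrl. The highest mean was in P1 Dctrl for 23 genes and in P1 DcKO for 20, and P5 DcKO held it for 17 against 9 for P5 Dctrl. Such counts were not made over all genes, so they describe the 88 genes without showing a trait particular to them. The median level over the 88 genes was 787 and 712 TPM in P1 DcKO against 741 and 694 TPM in P1 Dctrl, and 272 and 241 TPM in P10 GO GcKO against 126 and 193 TPM in P10 GO Gctrl.

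The first age comparison in controls, P5 against P1 NGO of Dctrl, addressed change in NGO after birth. Of 88 genes tested 16 were lower and 3 higher at P5, where 1.98% and 2.72% of all 20470 genes passed in those directions (limma, adjusted p under 0.05), and the median log2 fold change was -0.26 against 0.01 over all genes. The 6 with the smallest p were small subunits of 4 complexes. Uqcrb, which binds ubiquinone in complex III, was at 951 and 911 TPM at P5 against 2152 and 1992 TPM at P1, and fell by 1.15 on the log2 scale (-1.15 ± 0.10 SE, adjusted p = 6.02e-05). The P5 libraries lay below both P1 libraries by far more than the replicates differed. Ndufc1 (-1.38, adjusted p = 0.000147), Atp5md (-1.46, adjusted p = 0.000598), Ndufb6 (-1.14, adjusted p = 0.000616), Cox7c (-1.31, adjusted p = 0.000678) and Ndufa1 (-0.99, adjusted p = 0.000811) followed. The mitochondrially encoded genes fell with them, 4 of 13 past the test and all 13 below 0. By complex, 6 of 40 genes of complex I, 0 of 4 of complex II, 3 of 8 of complex III, 1 of 19 of complex IV and 6 of 17 of complex V fell. Quantile normalization gave 16 lower and 6 higher.

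The 3 that were higher at P5 were 2 alternative isoforms and the stalk subunit Atp5o. Cox4i2, the form of cytochrome c oxidase subunit IV known from lung and from the response to low oxygen, was at 822 and 769 TPM at P5 against 134 and 142 TPM at P1 (2.52 ± 0.36, adjusted p = 0.00196). Ndufa4l2, a relative of Ndufa4 known as a target of hypoxia-inducible factor, was at 13 and 6.79 TPM at P5 and was listed at 0 and at 0.572 TPM at P1 (3.06 ± 0.41, adjusted p = 0.0013). Ndufa4 itself was at 2505 and 2789.8 TPM at P5, named for its relation and not by its change. Atp5o was at 1699 and 1804 TPM at P5 against 1236 and 1214 TPM (0.52 ± 0.10, adjusted p = 0.0123). Leaving out any 1 of the 4 libraries left between 9 and 12 calls: 9 without P1 Dctrl replicate 1, 11 without P5 Dctrl replicate 1, and 12 without replicate 2 of either group; the call of Atp5o ended each time.

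P10 NGO of Gctrl were next compared with P5 NGO of Dctrl, where age, genotype and Cre cannot be told apart. Here 43 of the 88 genes were lower and 8 higher at P10, against 17.1% and 5.54% of all genes, with a median of -0.59 against -0.47 over all genes. The change was uneven within complexes, as the plot of control oocytes by stage shows. Atp5d, the delta subunit of the rotor of ATP synthase, was at 0.605 and 1.11 TPM at P10 against 94.5 and 68.4 TPM at P5 (-5.47 ± 0.39, adjusted p = 3.86e-06), while Atp5k, a small subunit of the membrane part, was at 1177 and 1200.2 TPM against 535 and 584 TPM (1.09 ± 0.18, adjusted p = 0.0012). Members of complexes I, III and IV follow.

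Ndufv1, the subunit that binds NADH, was at 21.3 and 29 TPM at P10 against 681 and 733 TPM at P5 (-4.78 ± 0.38, adjusted p = 9.44e-06). Uqcrc1, a core protein of complex III, was at 42.9 and 68.7 TPM against 1051 and 954 TPM (-4.18 ± 0.34, adjusted p = 9.63e-06), and its partner Uqcrc2, named after the values were seen, was at 156 and 125 TPM against 134 and 143 TPM. The ages were far apart for Uqcrc1 and overlapped for Uqcrc2. Cox6a1 was at 434 and 328 TPM against 2248 and 1971 TPM (-2.48, adjusted p = 9.63e-06), and Cox4i1 (-1.51) and Ndufb11 (-1.49) fell with adjusted p of 9.44e-06 and 9.63e-06. Sdhd (-3.49, adjusted p = 2.90e-05) and Sdhc (-3.13, adjusted p = 0.000401) fell in complex II, while Sdhb was at 725 and 720.0 TPM at P10 against 1028 and 909.8 TPM at P5 and did not pass.

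Besides Atp5k, the genes with the smallest p among those that rose were Cox7c (2444 and 2598 TPM at P10 against 1267 and 1073 TPM at P5; 1.11 ± 0.16, adjusted p = 0.000445), Ndufa12 (0.83, adjusted p = 0.0012), Atp5j2 (0.75, adjusted p = 0.00226), Cox5b and Atp5mpl. Of the mitochondrially encoded genes 6 of 13 were higher at P10 and 1 lower, with a median of 0.59, and mt-Cytb had the smallest p (1.77 ± 0.16, adjusted p = 2.34e-05). With voom on recovered reads its fold change was of similar size (1.56) with a far wider error, and the call ended (adjusted p = 0.719). Between 10213 and 10940 genes reached 1 TPM in the P10 libraries against 14305 to 15453 in those of P5, and the part of that difference in these results was not tested. Rescaling by median-of-ratios size factors moved the median of all genes to -0.21 and that of the 88 genes to -0.09, with 24 lower and 14 higher. The median of the 88 genes thus lay above that of all genes after rescaling, as it also did with a pseudocount of 0.1 (-0.59 against -0.88) and with voom on recovered reads (-0.89 against -1.14), and below it without. The calls of Atp5d, Ndufv1, Uqcrc1, Cox6a1, Cox4i1, Ndufb11, Sdhc, Sdhd, Cox7c, Atp5k, Ndufa12 and Atp5j2 held under every alternative run, whereas those of Cox5b and Atp5mpl ended without Gctrl replicate 2 and with voom on recovered reads, and that of Atp5mpl also without Dctrl replicate 1.

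**Figure D3:**
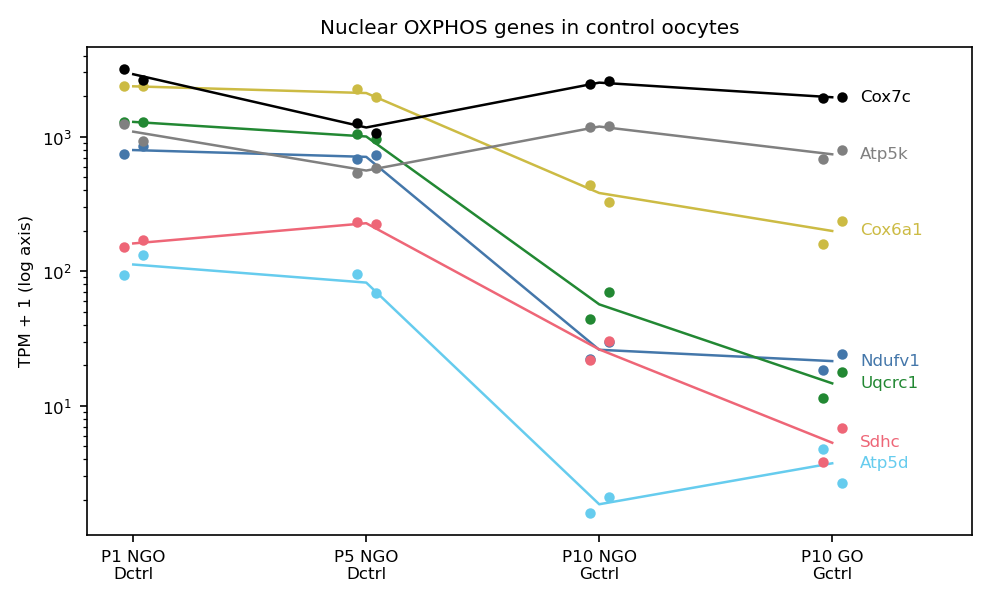
TPM + 1 (log axis) of 7 genes in the 8 control oocyte libraries, from P1 NGO and P5 NGO (Dctrl) to P10 NGO and P10 GO (Gctrl); points are libraries and lines join group means. Atp5d, Ndufv1, Uqcrc1, Sdhc and Cox6a1 lie far lower at P10 than at P5, while Cox7c and Atp5k are higher in P10 NGO (2444 and 2598; 1177 and 1200.2 TPM) than in P5 NGO (1267 and 1073; 535 and 584 TPM).

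Growing oocytes were then set against non-growing oocytes of the same P10 Gctrl genotype. In GO 61 of 88 genes were lower and 2 higher, against 13.2% and 11% of all genes, with a median log2 fold change of -1.01 against 0 over all genes. The fall covered all complexes: 29 of 40 genes in complex I, 2 of 4 in II, 6 of 8 in III, 12 of 19 in IV and 12 of 17 in V. Ndufa7 had the smallest p, at 249 and 294 TPM in GO against 1188 and 1070.0 TPM in NGO (-2.06 ± 0.13, adjusted p = 1.12e-06). Atp5o was at 672 and 742 TPM in GO against 1854 and 2197 TPM in NGO (-1.51, adjusted p = 1.48e-06), and Ndufa12, an accessory subunit of the complex I arm that holds the NADH site, at 355 and 409 TPM against 1411 and 1841 TPM (-2.08, adjusted p = 1.52e-06). Ndufc1, Ndufa5 and Cox5b were the next, at -1.69, -1.67 and -1.32. The 2 that rose were Ndufa11 (433 and 534 TPM in GO against 264 and 337 TPM in NGO) and its annotated pseudogene copy Ndufa11b (2.17 and 4.42 TPM against 0.611 and 0.337 TPM), and both calls ended when NGO replicate 1 or GO replicate 2 was left out. Rescaling by size factors left 32 lower and 5 higher with a median of -0.49. The shares and median of all genes after rescaling are not given here, and 13.2%, 11% and 0 apply without it.

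The tricarboxylic acid cycle and pyruvate dehydrogenase genes, which supply NADH and succinate, were lower in 11 of 17 cases and higher in 0. Of 49 assembly factors 15 were lower and 4 higher, and of 77 mitochondrial ribosome genes 34 were lower and 2 higher. Among all genes 13.2% were lower and 11% higher in this comparison. Idh3g, a subunit of isocitrate dehydrogenase, was at 20.6 and 37.2 TPM in GO against 238 and 258 TPM in NGO (-3.12 ± 0.27, adjusted p = 8.89e-06), and Uqcc3, an assembly factor of complex III, at 1.92 and 2.61 TPM against 264 and 313 TPM (-6.47 ± 0.36, adjusted p = 5.64e-07). Cyc1, the cytochrome c1 subunit that the symbol rule does not take in, was at 4.4 and 1.87 TPM in GO against 36.8 and 53 TPM in NGO (-3.52, adjusted p = 1.78e-05). The mitochondrially encoded genes were lower too, 9 of 13, against the same 13.2% of all genes.

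The largest count of changes between knockout and control was in growing oocytes. In GO of GcKO against Gctrl 45 of 88 genes were higher and 0 lower, where 9.12% and 4.69% of all genes passed in those directions, and the median log2 fold change was 0.70 against 0.06 over all genes. Both GcKO libraries lay above both Gctrl libraries for 65 of the 88 genes and below them for 1, against 30.3% and 18% of all genes. The calls came from every complex, with 20 of 40 in complex I, 2 of 4 in complex II, 5 of 8 in complex III, 10 of 19 in complex IV and 8 of 17 in complex V. The medians were 0.52, 0.82, 0.69, 1.19 and 0.70 from complex I to complex V.

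Among complex I genes Ndufa12 was at 1179 and 1043 TPM in GcKO against 355 and 409 TPM in Gctrl (1.54 ± 0.14, adjusted p = 2.19e-05). In complex III, Uqcr11 was at 1579 and 1520.2 TPM against 743 and 873 TPM (0.94 ± 0.12, adjusted p = 0.000247). In complex V, Atp5g1, which encodes 1 of the forms of the rotor ring subunit c, was at 331 and 340.1 TPM against 112 and 145 TPM (1.39 ± 0.16, adjusted p = 0.000156). In each of these the GcKO libraries lay above the controls by more than either pair differed. The other genes for subunit c make the same protein with other targeting sequences: Atp5g3 was at 164 and 116 TPM against 68.3 and 102 TPM and Atp5g2 at 33.2 and 11 TPM against 11.5 and 10.6 TPM, and neither passed. In complex II, Sdhb was at 385 and 394 TPM against 172 and 295 TPM (0.79 ± 0.20, adjusted p = 0.02) and Sdhc at 13.9 and 22.2 TPM against 2.84 and 5.81 TPM (1.86 ± 0.44, adjusted p = 0.0138). Sdha overlapped between the groups, at 54.5 and 30.7 TPM against 43.4 and 37.2 TPM, and Sdhd was at 169.9 and 172 TPM against 102 and 87 TPM without passing (adjusted p = 0.123).

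In complex IV, Cox6c, a small subunit of the oxidase, was at 1041 and 1027 TPM in GcKO against 285 and 349.7 TPM in Gctrl (1.71 ± 0.15, adjusted p = 2.02e-05). Its annotated pseudogene copy Cox6c2, at 94.6 and 99.5 TPM against 24.5 and 24.4 TPM, moved with it, and its level stayed between 6.41% and 11.4% of that of Cox6c in all 20 libraries. Cox7a1, the form of subunit VIIa known from heart and skeletal muscle, was at 194 and 247 TPM in GcKO against 10.3 and 15.3 TPM in Gctrl (4.02 ± 0.39, adjusted p = 3.77e-05), the largest log2 fold change of the 88 genes there. It supplied 15.5% and 18% of the summed Cox7a1 and Cox7a2 TPM in GcKO against 1.24% and 1.66% in Gctrl.

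Cox4i2 was at 482 and 380.0 TPM in GcKO GO against 50.8 and 63.6 TPM in Gctrl GO (2.89 ± 0.36, adjusted p = 0.000227), while the broad form Cox4i1 was at 661 and 612 TPM against 325 and 411 TPM (0.80 ± 0.12, adjusted p = 0.00089). Cox4i2 therefore made up 42.2% and 38.3% of the summed subunit IV transcripts in GcKO GO against 13.5% and 13.4% in Gctrl GO. Cox8b, the form of subunit VIII known from heart and skeletal muscle, was listed at 0 in both Gctrl GO libraries and was at 11.5 and 7.71 TPM in GcKO (adjusted p = 0.00594). Cox6b1 (0.89, adjusted p = 0.00702), Cox8a and Cox7b also rose. Cox7b2, a form known from testis, was not even between replicates, at 1.23 and 80.5 TPM in GcKO GO against 0.486 and 0.247 TPM in Gctrl GO.

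The size of the response depended on scaling and on which controls were present. With TPM rescaled by median-of-ratios size factors 18 genes rose and the median was 0.41, and without Gctrl replicate 1 the median was 0.59. The share and median of all genes in these settings are not given here, and those given above apply to the main fit only. The calls of Cox6c, Ndufa12, Cox7a1, Atp5g1, Cox4i2, Uqcr11 and Cox8b held under every alternative run. Without Gctrl replicate 1 the calls of Sdhb, Sdhc, Cox8a, Cox6b1 and Cox7b ended. The calls of Cox4i1, Sdhb, Sdhc, Cox8a, Cox6b1 and Cox7b also ended in a fit of the 2 GO groups alone and with voom. Those of Cox8a, Sdhb and Cox7b ended without GcKO replicate 1, those of Cox6b1, Sdhb, Sdhc and Cox7b without GcKO replicate 2, and that of Cox7b without Gctrl replicate 2. Other measures moved with the groups. GcKO GO libraries had 13517 and 11980 genes at 1 TPM against 11579 and 11061 in Gctrl. The 9 granulosa or Sertoli markers summed to 10.4 and 12.1 TPM in GcKO against 3.02 and 0.537 TPM in Gctrl, with 1 and 3 of them at 0 against 4 and 6. The 4 steroidogenic markers summed to 23.7 and 17.5 TPM against 8.07 and 4.49 TPM, and the 4 endothelial markers, at 102 and 2.78 TPM against 6.64 and 2.96 TPM, overlapped. Some oocyte markers moved as well, in both directions, and their values were chosen after they were seen. Sohlh1, a transcription factor of early oocytes, was at 22.5 and 45.2 TPM in GcKO GO against 1.12 and 0.935 TPM in Gctrl GO, and at 70.2 and 56.4 TPM in GcKO NGO against 95.2 and 89.2 TPM in Gctrl NGO. Figla, another oocyte transcription factor, was at 965 and 753 TPM in GcKO GO against 316 and 468 TPM in Gctrl GO, and at 1397 and 1078 TPM in GcKO NGO against 1381 and 1704 TPM in Gctrl NGO. For both, the GcKO GO libraries lay between Gctrl GO and the NGO libraries. Zp3, a zona pellucida gene of growing oocytes, was also higher in GcKO GO, at 2131 and 2177 TPM against 1376 and 1359.9 TPM, and Gdf9, an oocyte growth factor, lay above its controls by little, at 750.2 and 734 TPM against 720.3 and 656 TPM. Nobox was higher as well. Dazl went the other way, at 352 and 213 TPM in GcKO GO against 437 and 455 TPM in Gctrl GO, and Ddx4 and Kit overlapped. All 8 oocyte markers summed to 4487 and 4301 TPM against 3151 and 3219.9 TPM. The part of these in the result was not tested.

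**Figure D4:**
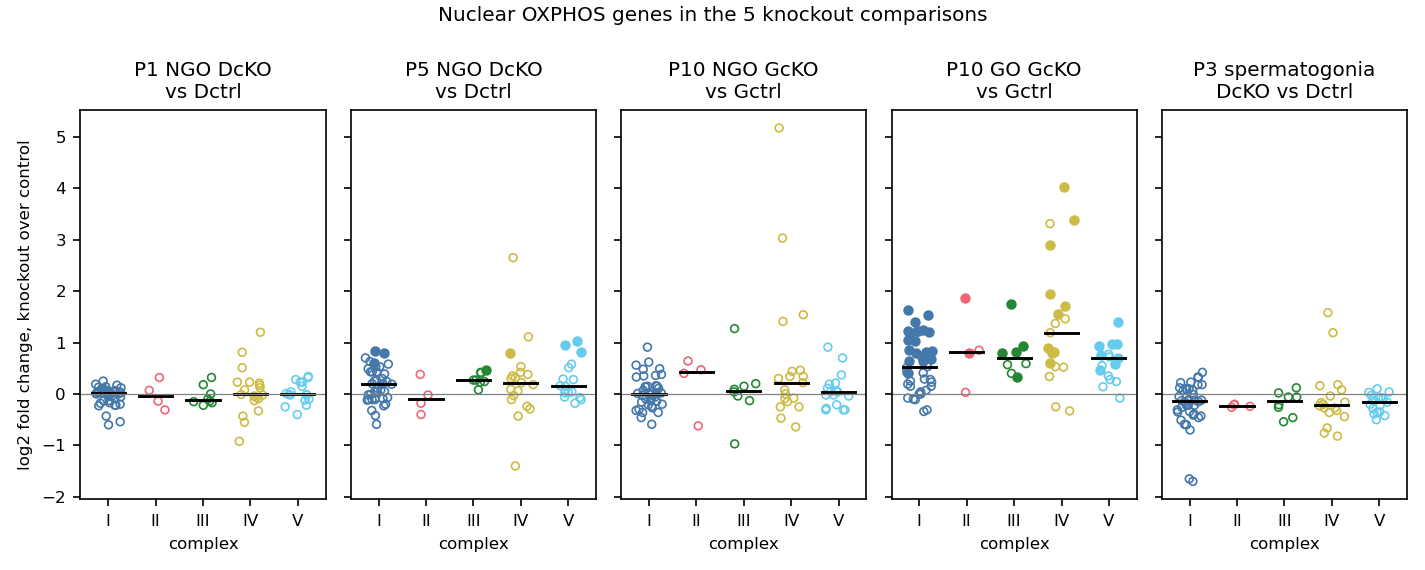
log2 fold change (knockout over control, log2(TPM + 1) scale) of each gene by complex in the 5 knockout comparisons; filled points passed an adjusted p of 0.05, open points did not, and black lines are medians per complex. Filled points are 45 in P10 GO and 8 in P5 NGO, all above 0, and none stand in the other 3 panels. In the spermatogonia fit no gene of the whole table passed, Chd4 included.

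Counts for related lists in GO were as follows. Of 49 assembly factors 6 were higher and 2 lower in GcKO, of 17 tricarboxylic acid cycle and pyruvate dehydrogenase genes 4 and 1, of 77 mitochondrial ribosome genes 11 and 3, of 16 regulators 1 and 0, and of 13 mitochondrially encoded genes 1 and 0, against the same 9.12% and 4.69% of all genes. Uqcc3 was at 28.1 and 79.3 TPM in GcKO against 1.92 and 2.61 TPM in Gctrl (3.89 ± 0.36, adjusted p = 2.79e-05). Coa6, a copper protein needed to assemble cytochrome c oxidase, was at 97.2 and 129 TPM against 14.3 and 24.9 TPM (2.51 ± 0.24, adjusted p = 3.77e-05), whereas Sdhaf4, an assembly factor of complex II, fell (-1.37 ± 0.14, adjusted p = 5.89e-05). Idh3g (2.71, adjusted p = 4.87e-05) and Suclg1 (2.40, adjusted p = 0.000875) of the tricarboxylic acid cycle rose, as did Mrpl28 (1.18) of the mitochondrial ribosome, and Gabpa (1.87, adjusted p = 0.014), an ETS-family factor known to act at promoters of respiratory genes. Its call ended without Gctrl replicate 1 or GcKO replicate 2.

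Promoters of the 88 genes were read for the letters bound by 3 factors known to act on respiratory genes. RefSeq promoters on GRCm38.p6 were at hand for 68 of the 88, each from 250 bases before to 50 after a gene's start. On either strand, GCATGCGC, the core bound by nuclear respiratory factor NRF1, stood in 10 of 68 (14.7%) and in 3.05% of all 27025 genes with a promoter; CCGGAAGT, bound by ETS factors such as GABPA, in 5 (7.35%) and 4.31%; and AAGATGGCG, bound by YY1, in 7 (10.3%) and 1.64%. In GO of GcKO 4 of the 10 genes with the NRF1 letters rose, 3 of the 5 with the ETS letters, 4 of the 7 with the YY1 letters and 25 of the 47 with none. A match is a description of letters, not a bound site. The 4 promoters shown are those of genes that rose in GO of GcKO and that hold the NRF1 and ETS letters (Uqcr11, chr10:80406772-80407071, minus strand), the NRF1 letters (Uqcrc1, chr9:108936398-108936697, plus strand), the YY1 letters (Ndufs7, chr10:80249199-80249498, plus strand), or none of them (Cox7a1, chr7:30183921-30184220, plus strand). Each is given 5′ to 3′ on the gene's strand, with the matched letters in capitals; where GCATGCGC matches both strands with an overlap, 10 letters are in capitals.
Uqcr11: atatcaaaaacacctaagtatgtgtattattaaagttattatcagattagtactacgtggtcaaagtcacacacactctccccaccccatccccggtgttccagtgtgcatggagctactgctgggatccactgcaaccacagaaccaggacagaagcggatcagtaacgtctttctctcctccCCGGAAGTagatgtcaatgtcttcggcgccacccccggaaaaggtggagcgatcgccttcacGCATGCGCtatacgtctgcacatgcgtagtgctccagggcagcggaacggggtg
Uqcrc1: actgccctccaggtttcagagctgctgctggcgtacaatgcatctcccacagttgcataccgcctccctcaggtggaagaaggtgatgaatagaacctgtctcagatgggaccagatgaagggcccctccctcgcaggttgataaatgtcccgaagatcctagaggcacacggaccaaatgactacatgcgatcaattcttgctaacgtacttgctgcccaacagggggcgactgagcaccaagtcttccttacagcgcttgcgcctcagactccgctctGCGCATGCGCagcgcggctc
Ndufs7: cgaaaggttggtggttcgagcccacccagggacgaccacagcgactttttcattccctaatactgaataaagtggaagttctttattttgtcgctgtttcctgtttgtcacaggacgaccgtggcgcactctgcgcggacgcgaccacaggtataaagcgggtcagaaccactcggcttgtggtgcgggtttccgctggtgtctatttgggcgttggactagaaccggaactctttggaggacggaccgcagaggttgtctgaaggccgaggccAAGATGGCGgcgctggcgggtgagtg
Cox7a1: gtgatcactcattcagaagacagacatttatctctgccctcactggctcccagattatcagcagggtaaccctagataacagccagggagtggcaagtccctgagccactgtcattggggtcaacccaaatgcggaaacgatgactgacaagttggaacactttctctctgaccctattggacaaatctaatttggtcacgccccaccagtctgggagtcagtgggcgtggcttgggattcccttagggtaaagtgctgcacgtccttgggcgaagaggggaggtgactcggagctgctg
Of these, Uqcrc1 was at 54.6 and 40.1 TPM in GcKO GO against 10.4 and 17 TPM in Gctrl GO (1.74 ± 0.34, adjusted p = 0.00474). Ndufs7, a core subunit of complex I that holds an iron-sulfur cluster, was at 170.1 and 113 TPM against 38.4 and 50.3 TPM (1.63 ± 0.23, adjusted p = 0.000521). Both were named for their promoters after their values were seen, and the call of Uqcrc1 ended without Gctrl replicate 1, in a fit of the GO groups alone and with voom.

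The step between NGO and GO was also taken within GcKO, where it gave 32 genes lower and 5 higher, against 8.92% and 11.5% of all genes, with a median of -0.47 against 0. Rescaling by size factors gave 19 lower and 9 higher, and quantile normalization 27 and 11. Shares of all genes are not given beside these counts, nor beside those of rescaling further below. The genes with the smallest p, Ndufa7 (373 and 352 TPM in GO against 1087 and 1081 TPM in NGO; -1.58, adjusted p = 1.01e-05), Ndufc1 (-1.40), Ndufa6 (-1.61), Uqcrb (-0.82), Ndufb6 (-1.09) and Atp5j (-0.90), fell in GcKO. In Gctrl, Ndufa7 had -2.06 and Ndufc1 -1.69. Atp5g1 rose instead, at 331 and 340.1 TPM in GcKO GO against 145 and 159.8 TPM in GcKO NGO (1.13 ± 0.16, adjusted p = 0.000404), as did Cox7a1, Cox7a2l, Ndufa11 and Atp5h. The difference between the knockout effects in GO and in NGO was itself tested: 25 genes had a larger effect in GO and 0 a smaller one, against 4.84% and 2.62% of all genes, with a median difference of 0.60 against 0.08. Among the genes named, Cox4i2 (3.14 ± 0.50, adjusted p = 0.00336), Uqcrc1 (2.71 ± 0.48, adjusted p = 0.00597) and Cox7a1 (2.61 ± 0.55, adjusted p = 0.015) had the largest differences. This count was 14 without NGO Gctrl replicate 2 and 12 without GO Gctrl replicate 1, and rescaling by size factors left 7 larger and 1 smaller.

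In P10 NGO no gene of the 88 passed between GcKO and Gctrl (limma), against 1.02% of all genes higher and 0.899% lower, and the median was 0.03 against 0. At an unadjusted p under 0.05, 12 were higher and 2 lower, with the share of all genes at that threshold not given here. Voom on recovered reads called 1. Both GcKO libraries lay above both Gctrl libraries for 25 of the 88 genes and below them for 9, against 17.4% and 17% of all genes. The smallest p belonged to Cox7b2, which was listed at 0 in both Gctrl libraries and was at 14.1 and 85.5 TPM in GcKO (adjusted p = 0.0555). Cox8c, a form of subunit VIII known from testis, was at 29.4 and 5.95 TPM in GcKO against 1.41 and 0.312 TPM in Gctrl (3.03 ± 0.76, adjusted p = 0.0683), and Atp5g3 at 321 and 443 TPM against 237 and 168 TPM (0.91 ± 0.24, adjusted p = 0.0874). In all 3 the GcKO libraries lay above the controls, but they differed from each other by more TPM than the controls did. In this GcKO group 13 of the 88 genes lay more than 1 log2 unit apart between replicates, against 1 to 5 in the other 9 groups; without GcKO replicate 1, which leaves a lone GcKO library assumed to vary like the other groups, 5 genes were called higher and 5 lower, and without GcKO replicate 2 or Gctrl replicate 2 it was 1. By library, Cox7b2 and Cox7c were higher in replicate 2 and Cox8c in replicate 1.

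At P5 8 genes were higher in DcKO NGO and 0 lower, against 1.05% and 0.313% of all genes, and the median was 0.20 against 0. Both DcKO libraries lay above both Dctrl libraries for 46 of the 88 genes and below them for 11, against 23.9% and 23.4% of all genes. The 8 were subunits of complexes I, III, IV and V. Ndufc1, an accessory subunit of the complex I membrane arm, was at 1639 and 1497 TPM in DcKO against 833 and 933 TPM in Dctrl (0.83 ± 0.13, adjusted p = 0.0114). Atp5md, a small protein that helps ATP synthase form dimers, was at 454 and 417 TPM against 222 and 204 TPM (1.03 ± 0.17, adjusted p = 0.0146), and Cox7c at 2135 and 1894 TPM against 1267 and 1073 TPM (0.79 ± 0.16, adjusted p = 0.0338). The DcKO libraries of these genes did not overlap the controls.

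Ndufa1 (0.60, adjusted p = 0.038), Uqcrb (0.47, adjusted p = 0.0391) and Atp5pb (0.96, adjusted p = 0.0457) followed, and Ndufc2 and Atp5k completed the 8. Atp5md and Atp5pb had no recovered reads and were not tested by voom, so the voom calls given below are not the same 8. The 9 granulosa or Sertoli markers summed to 22 and 54.8 TPM in DcKO against 9.07 and 4.55 TPM in Dctrl, with 2 of them at 0 in each library. Oocyte markers went in both directions, and their values were chosen after they were seen. Zp3 was at 488 and 620 TPM in DcKO against 1283 and 1536 TPM in Dctrl, and Gdf9 at 166 and 222 TPM against 496 and 487 TPM. Figla and Nobox were also lower in DcKO. Dazl was higher, at 754 and 970 TPM in DcKO against 619 and 451 TPM in Dctrl. Sohlh1 was higher too, at 1106 and 1267 TPM against 1050 and 959 TPM, while Ddx4 and Kit overlapped. All 8 oocyte markers summed to 7143 and 6278 TPM in DcKO against 8518 and 8396 TPM in Dctrl. The part of these markers in the result was not tested. Of the other lists Higd1a, a protein that binds respiratory complexes, was the 1 assembly factor of 49 that rose (0.84, adjusted p = 0.012), a call that ended without replicate 2 of either group. No call among the 88 was left under rescaling by size factors, in a fit of the P5 groups alone, or without DcKO replicate 1 or Dctrl replicate 2; 1 was left without DcKO replicate 2 and 4 without Dctrl replicate 1, while voom on recovered reads called 8.

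The comparison of P5 with P1 in Dctrl shares the P5 Dctrl libraries with this one, so values are given side by side. Uqcrb was at 1869 and 1820.5 TPM in P1 DcKO and 1306 and 1272 TPM in P5 DcKO, against 2152 and 1992 TPM in P1 Dctrl and 951 and 911 TPM in P5 Dctrl. Ndufc1 was at 2348 and 2216 TPM in P1 DcKO and 1639 and 1497 TPM in P5 DcKO, against 2569 and 2043 TPM in P1 Dctrl and 833 and 933 TPM in P5 Dctrl. Both were lower at P5 in each genotype, and at P5 lay higher in DcKO. The test of a difference between the knockout effects at P5 and at P1 passed for 0 of the 88 genes (limma). Of all genes 0.23% passed as higher and 0.083% as lower. The limma adjusted p was 0.0832 for Uqcrb, 0.0895 for Ndufc1 and 0.255 for Atp5md, and voom on recovered reads called 3. At an unadjusted p under 0.05, 11 were higher and 1 lower, with the share of all genes at that threshold not given here. The form Cox7b2 was at 325 and 322 TPM in P5 DcKO against 65.1 and 39.5 TPM in P5 Dctrl. It supplied 19.9% and 24% against 5.43% and 3.11% of the summed Cox7b and Cox7b2 TPM, with no overlap, and did not pass. Its replicates lay 5.19 log2 units apart in P10 GO GcKO and 2.52 in P10 NGO GcKO, a spread that the shared fit pools into this test.

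At P1 no gene of the 88 passed between DcKO and Dctrl NGO (limma), against 0.86% of all genes higher and 0.84% lower. At an unadjusted p under 0.05, 3 were higher and 4 lower, with the share of all genes at that threshold not given here. Voom on recovered reads called 0, and the median was 0 as over all genes. The smallest p belonged to Cox7b (1482 and 1504 TPM in DcKO against 1125 and 977 TPM in Dctrl; 0.51 ± 0.16, adjusted p = 0.21), Cox5b (539 and 493 TPM against 682 and 618 TPM; -0.33, adjusted p = 0.272) and Ndufa9 (219 and 194 TPM against 308 and 318 TPM; -0.60, adjusted p = 0.287). For these 3 the groups did not overlap, which was so for 42 of the 88 genes, with 19 higher and 23 lower in DcKO, against 18.4% and 22.5% of all genes, a share near that of all genes.

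In P3 spermatogonia no gene at all passed between DcKO and Dctrl in the fit of 4 libraries (0% of 18671 genes, limma). Chd4 itself, at 40.2 and 51.7 TPM in DcKO against 249 and 286 TPM in Dctrl, did not pass either. The absence of calls in this fit therefore does not show an absence of change. Of the 87 tested, 1 was higher and 15 lower at an unadjusted p under 0.05, with the share of all genes at that threshold not given here. Voom on recovered reads called 0, and the median was -0.20 against 0.09 over all genes. Both DcKO libraries lay below both Dctrl libraries for 42 genes and above them for 8, against 18% and 27.9% of all genes. Cox6b1, the broad form of a subunit that joins the dimer of the oxidase, was at 216 and 191 TPM in DcKO against 346 and 376 TPM in Dctrl (-0.82 ± 0.14, adjusted p = 0.143). Ndufa2 was at 318 and 391 TPM against 585 and 562 TPM (-0.70, adjusted p = 0.154), and Ndufa9 at 252 and 216 TPM against 355 and 349 TPM (-0.59, adjusted p = 0.175). In each of these the DcKO libraries were the lower ones. Cox6b2, the form known from sperm, went the other way at 18.5 and 11.4 TPM in DcKO against 5.88 and 5.74 TPM in Dctrl and did not pass. Markers of other cells moved with the groups: the 6 stroma markers summed to 34 and 38.2 TPM in DcKO against 7.7 and 11.4 TPM in Dctrl, with 2 of them at 0 in each library. The 4 endothelial markers summed to 43.6 and 45.6 TPM against 22.3 and 22.7 TPM, and the 9 granulosa or Sertoli markers to 113 and 120.2 TPM against 111 and 58.1 TPM. Their part in these values was not tested.

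Several isoforms had unlike shares in spermatogonia and oocytes. Cox7b2 made up 69.7% and 66.6% of summed Cox7b and Cox7b2 TPM in spermatogonia of DcKO and 67.5% and 63.6% in those of Dctrl, and from 0% to 24% in oocytes, a description across tables that were normalised separately. Cox4i2 ran the other way, with 0.827% and 1.27% of subunit IV TPM in spermatogonia of DcKO and 0.504% and 0.104% in those of Dctrl. Within oocytes Cox4i2 held 9.62% and 7.52% at P1 in DcKO against 5.17% and 5.7% in Dctrl, and 27% and 26.9% at P5 in DcKO against 26.5% and 28.4% in Dctrl. In P10 NGO it held 32.6% and 16.5% in GcKO against 26.5% and 37.6% in Gctrl, where the groups overlapped, before the wide separation in GO given above.

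**Figure D5:**
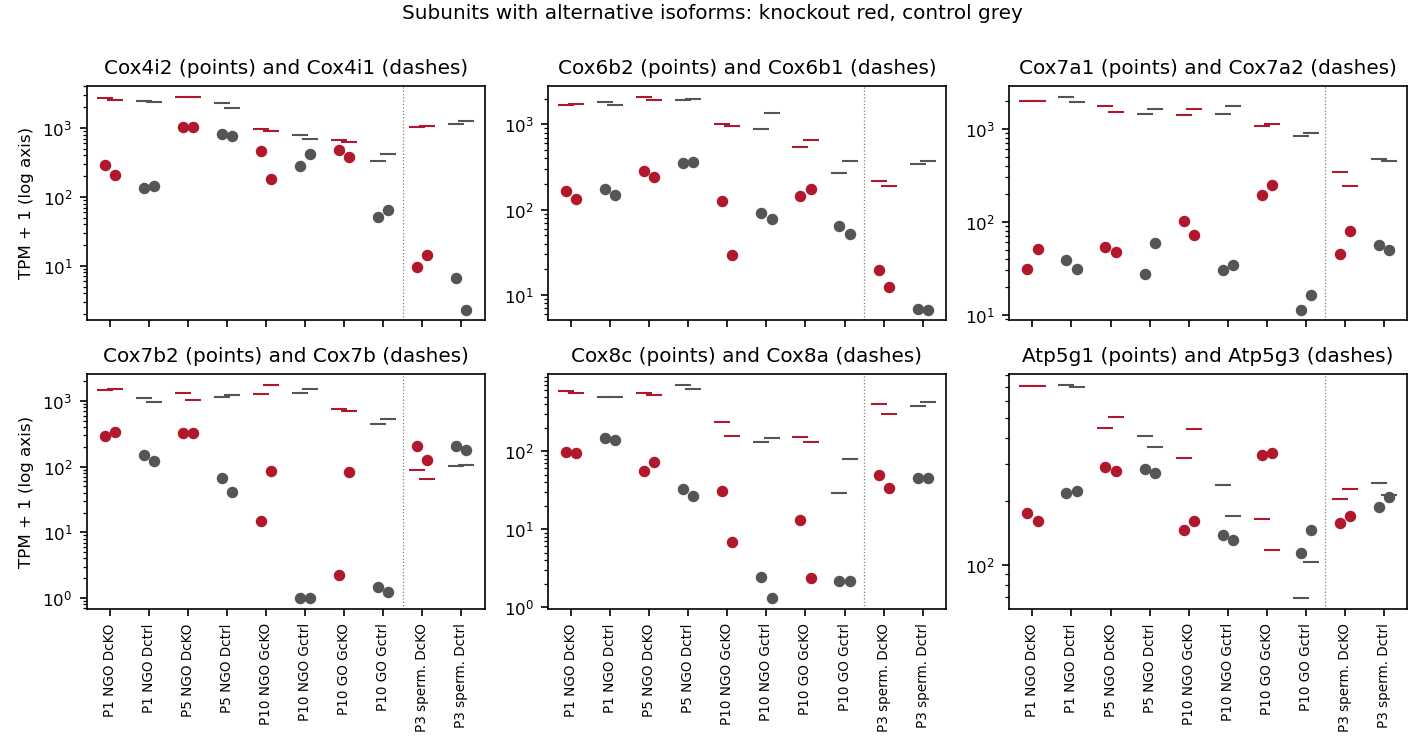
TPM + 1 (log axis) of 6 alternative isoforms (points) and of a broad or partner form of the same subunit (dashes) in each library, with knockout in red and control in grey and the spermatogonia right of the dotted line. In P10 GO the red points of Cox4i2 (482 and 380.0 TPM), Cox7a1 (194 and 247 TPM) and Atp5g1 (331 and 340.1 TPM) stand above the grey ones (50.8 and 63.6; 10.3 and 15.3; 112 and 145 TPM).

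Cox8c was at 97.6 and 94.5 TPM in P1 DcKO against 145 and 137 TPM in P1 Dctrl, and at 55 and 70.8 TPM in P5 DcKO against 31.6 and 25.4 TPM in P5 Dctrl, so that it lay lower in DcKO at P1 and higher at P5; neither passed. Cox6b2 was at 286 and 241 TPM in P5 DcKO against 347 and 358 TPM in P5 Dctrl, and at 142 and 176 TPM in P10 GO GcKO against 63.3 and 50.9 TPM in P10 GO Gctrl, again without passing. Cox6a2, the muscle form of subunit VIa, reached at most 18.8 TPM in oocytes and was listed at 0 in all 4 P10 NGO libraries. Among the genes for subunit c, Atp5g3 supplied 64.8% and 66.2% of the summed TPM in P1 DcKO and 62% and 61% in P1 Dctrl. Atp5g1 supplied 62.6% and 72.8% in P10 GO GcKO and 58.4% and 56.4% in P10 GO Gctrl. The leading gene thus differed between P1 NGO and P10 GO. Genotype and Cre also differ between these groups, so stage cannot be told apart from them.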

How the data were processed

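The authors deposited TPM (a length-scaled share of transcripts) per gene, 1 table for 16 oocyte libraries and 1 for 4 spermatogonia libraries. The submitters' processing notes name Trimmomatic 0.39, STAR 2.5.4b, SAMtools 1.9, featureCounts 2.0.1 and GRCm38. The gene annotation, gene lengths and strand setting are not given in the sources used here. Gene types came from GENCODE M21.

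Genes with at least 1 TPM in at least 2 libraries were kept (20470 oocyte and 18671 spermatogonia genes, with 88 and 87 members). log2(TPM + 1) values were fitted with limma 3.58.1 in R 4.3.3, with a mean-variance trend and Benjamini-Hochberg adjustment over all genes tested, and calls were made at an adjusted p of 0.05. All 16 oocyte libraries shared 1 fit (8 residual degrees of freedom) and the 4 spermatogonia libraries another (2). All tests were two-sided. Fold changes are on the log2(TPM + 1) scale, which understates the change of low genes. The procedure was tested on simulated data.

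TPM times gene length came out as multiples of 1 read's worth: among those below 20 reads, 98.65% to 99.19% per library were whole to within 0.05, which gave the depth per library and an added alternative, voom on these recovered reads. The other alternatives were a pseudocount of 0.1, no filter, a filter of TPM 5, median-of-ratios rescaling, quantile normalization, a fit of the compared groups alone, a replicate block and each library left out.

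The text names up to 6 members higher and 6 lower with the smallest p in each comparison, or the 3 with the smallest p where none passed. It also names the 2 members with the highest mean oocyte TPM of each complex, the 4 subunits of complex II, alternative isoforms with their broad forms, and up to 3 genes of each related list. Any other name is marked as chosen after its values were seen. The members and lists were chosen with earlier results of these data known.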

Additional observations from a re-analysis of the deposited data

Results flagged for a closer look

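For 10 of the genes named, the effect of the knockout at P10 differed between growing and non-growing oocytes by a test of the difference itself (limma interaction, adjusted over all genes). On the log2 scale the GO effect minus the NGO effect was 1.38 ± 0.19 SE for Ndufa12 (adjusted p = 0.00153), 0.90 ± 0.14 for Atp5o (adjusted p = 0.00301) and 1.05 ± 0.17 for Cox5b (adjusted p = 0.00301). It was 3.14 ± 0.50 for Cox4i2 (adjusted p = 0.00336), 1.27 ± 0.21 for Cox6c (adjusted p = 0.00454) and 2.71 ± 0.48 for Uqcrc1 (adjusted p = 0.00597). It was 1.19 ± 0.23 for Atp5g1 (adjusted p = 0.00949) and 2.61 ± 0.55 for Cox7a1 (adjusted p = 0.015). It was 1.04 ± 0.26 for Cox6b1 (adjusted p = 0.035) and 2.49 ± 0.62 for Sdhc (adjusted p = 0.0323). Each difference also holds the NGO effect, in which no gene of the 88 passed. That effect was -0.97 for Uqcrc1 and -0.62 for Sdhc, which widens their differences. Cox7a1 instead was higher in NGO of GcKO. It supplied 6.59% and 4.26% of the summed Cox7a1 and Cox7a2 TPM there, against 2% and 1.85% in Gctrl. Cox4i2 passed under every alternative run, and the calls of Ndufa12, Atp5o, Cox5b, Cox6c, Uqcrc1, Atp5g1 and Cox4i2 held whichever library was left out.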

How the results depend on the processing

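No called value changed sign under an alternative. In P10 against P5, however, the median of the 88 genes relative to that of all genes did, from below to above, with rescaling, a pseudocount of 0.1 and voom. The main counts of the 88 genes were recomputed under each alternative, and those that moved by over 1.5 times follow. The shares of all genes under each alternative are not given beside them. In a fit of the compared groups alone the count was 2 for P1 DcKO, 0 for P5 DcKO, 24 for GO GcKO, 33 for P5 against P1, 15 for GO against NGO in GcKO and 3 for the difference of knockout effects between GO and NGO. With median-of-ratios rescaling it was 0 for P5 DcKO, 1 for P10 NGO GcKO, 18 for GO GcKO, 11 for P5 against P1, 37 for GO against NGO in Gctrl and 8 for the GO and NGO difference. With no filter it was 3 for P5 DcKO and 16 for the GO and NGO difference, with a filter of TPM 5 it was 2 for P5 DcKO and 1 for P10 NGO GcKO, with a pseudocount of 0.1 it was 2 for P10 NGO GcKO, and with quantile normalization it was 5 for P5 DcKO and 3 for P10 NGO GcKO. With voom on recovered reads, chosen after seeing the data and run on 85 of the 88 genes in oocytes, it was 1 for P10 NGO GcKO, 25 for GO GcKO, 14 lower and 10 higher (24) for GO against NGO in GcKO, 9 for the GO and NGO difference and 3 for the P5 and P1 difference. The causes were not tested.

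Replicate numbers did not pair the samples (correlations of same-numbered deviations from -0.05 to 0.05), and the replicate block gave 0 for P5 DcKO, 36 for GO GcKO and 9 for the GO and NGO difference. With each library left out in turn, counts ran from 0 to 0 for P1 DcKO, 0 to 4 for P5 DcKO, 0 to 10 for P10 NGO GcKO, 25 to 42 for GO GcKO and 0 to 0 for P3 DcKO. They ran from 9 to 12 for P5 against P1, 37 to 44 for P10 against P5, 56 to 60 for GO against NGO in Gctrl, 30 to 38 for it in GcKO, 12 to 31 for the GO and NGO difference and 0 to 0 for the P5 and P1 difference. With mitochondrially encoded genes left out of the total, the mean share held by the 88 genes was 9.27% in P1 DcKO, 7.08% in P5 Dctrl, 5.81% in P10 NGO GcKO, 4.05% in GO GcKO, 2.33% in P3 DcKO and 2.69% in P3 Dctrl. Among single genes 1966 alternative values kept their side of the threshold, 319 fell short of it and 12 newly passed it.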

Other observations

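Some of the 13 symbols with "-ps" had levels near those of subunit genes, and they are given as values chosen after they were seen. Ndufb1-ps was at 421.71 and 576.37 TPM in GcKO GO against 933.25 and 944.47 TPM in Gctrl GO, and at 173.08 and 153.38 TPM in GcKO NGO against 179.36 and 205.84 TPM in Gctrl NGO. It thus lay lower in GcKO GO, and higher in GO than in NGO in each genotype. Ndufs5-ps was at 832.85 and 777.62 TPM in P1 DcKO against 420.65 and 351.47 TPM in P1 Dctrl, and at 710.56 and 501.69 TPM in P5 DcKO against 269.33 and 318.15 TPM in P5 Dctrl. In P3 spermatogonia it was at 86.63 and 42.42 TPM in DcKO against 199.06 and 190.82 TPM in Dctrl. Reads of Ndufs5-ps and of Ndufs5 cannot be told apart with certainty, and no gene Ndufb1 is among the 88.

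Of the annotated pseudogene copies among the 88 genes, Ndufa11b stood at 0.1% to 2.18% of the level of its parent over the 20 libraries, Ndufb4c at 0.606% to 6.23% and Ndufs6b at 0.629% to 2.36%.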
